A study of Rattus norvegicus with 72 samples.

Results

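The transcription factors described here are Sox11 and Sox4, the Krüppel-like factors Klf4, Klf5, Klf6, Klf7, Klf9 and Klf10, and Myc, followed in dorsal root ganglia over the first day after a crush of the sciatic nerve. A probe set was taken as a member when the platform annotation gave it exactly 1 of these symbols. This found 25 probe sets for 9 genes, out of 14217 named genes on the array, and each gene was represented by its brightest probe set, judged by the mean of the 72 arrays. All 9 passed the filter on dim probe sets, as did 12276 genes in all. Sox11 passed through the arrays taken after a crush: its mean was 6.15 log2 over all 72 arrays and 5.43 log2 over the 21 sham arrays. The filter level was 5.46 log2. The study used Wistar rats of 8 to 12 weeks, and measured RNA of the lumbar ganglia L4 and L5 on Affymetrix arrays at 8 times between 1 and 28 h after surgery. The groups were a distal lesion (29 arrays), a proximal lesion (22 arrays) and sham surgery (21 arrays). Distal groups held 4, 3, 5, 3, 2, 6, 3 and 3 arrays in order of hour. Proximal groups held 3 arrays except 2 at 12 and 16 h, and sham groups 3 except 2 at 12 h and 1 at 16 h. The labels give no distance of either crush site from the ganglion and do not say that arrays came from separate animals, so p-values cover no more than array-to-array spread, and precision is set by how many arrays a group has. All values are log2 intensities, so a difference of 1 is a doubling of the signal, and levels are compared between arrays and never between genes.

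Sox11 and Sox4 belong to the SoxC group of high-mobility-group transcription factors, which act in developing neurons, and Sox11 is known to return in adult sensory neurons after nerve injury and to promote axon growth. Krüppel-like factors bind GC-rich and CACCC sequences through zinc fingers. In retinal and cortical neurons Klf4 and Klf9 are known to suppress axon growth, whereas Klf6 and Klf7 promote it. Klf5 is known from epithelial and smooth muscle cells, Klf10 as an early TGF-beta response gene, and Klf9 as a direct target of the glucocorticoid and thyroid hormone receptors. Myc pairs with Max at E-box sequences and drives ribosome biogenesis and growth.

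The hours were grouped into an early window (1, 3 and 8 h), a middle window (12 and 16 h) and a late window (18, 24 and 28 h). Tests were made with limma across all 12276 genes, and "called" means an adjusted p (Benjamini-Hochberg, over the genes of that comparison) below 0.05. The injury marker Atf3 averaged 12.41 log2 in late proximal arrays and 8.79 log2 in late sham arrays. It averaged 12.02 log2 in late distal arrays and 7.79 log2 in early distal arrays. The ganglion label was checked on 11 sensory neuron markers, whose mean level lay between 12.14 and 12.62 log2 over all arrays of the early and late windows. Dim probe sets split the arrays into 4 technical sets, labelled A to D here. Set A held 27 distal arrays and nothing else. Set B held 1 distal, 4 proximal and 4 sham arrays, set C 9 proximal and 9 sham arrays, and set D 1 distal, 9 proximal and 8 sham arrays. Proximal and sham arrays of an hour shared their sets except at 16 h, where 1 proximal array lay in set D and the only sham array in set B. Distal and sham arrays shared almost no set, so lesion and technical set cannot be told apart between them, and the distal arrays are read mainly against other distal arrays. In sham, set and hour were also linked: 1, 24 and 28 h lay in set C, and 3 and 8 h in set D. In tissue of this kind, fewer cells of a type and less RNA per cell cannot be told apart.

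Late after the proximal crush, 4 of the 9 factors were higher than in sham and none was lower. Sox11 rose most, 5.11-fold, followed by Myc (2.20-fold), Klf6 (1.85-fold) and Klf10 (1.37-fold). Over all genes 9.71% were called in this comparison and 5.35% were called higher. Sox11, Klf6 and Myc had every one of 9 proximal arrays above every one of 9 sham arrays, which was the case for 0.88% of genes. The median difference over the 9 members was 0.30, against -0.02 over all genes tested.

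Sox11, the SoxC factor of developing and injured neurons, was low through the first 8 h in all 3 lesion groups and high from 16 to 18 h on after both crushes. The promoter windows of Sox11 and Klf6 are shown because each gene rose after both crushes, and the letters allow a reader to set them side by side. Each window holds the 250 bases upstream of the RefSeq start, in the GRCr8 assembly, printed 5′ to 3′ on the gene's own strand. Capitals mark CACGTG (the E-box bound by Myc and Max), GGGCGG (a GC box), CCAAT and CACCC, each on either strand.
Sox11 chr6:49738795-49739044, minus strand: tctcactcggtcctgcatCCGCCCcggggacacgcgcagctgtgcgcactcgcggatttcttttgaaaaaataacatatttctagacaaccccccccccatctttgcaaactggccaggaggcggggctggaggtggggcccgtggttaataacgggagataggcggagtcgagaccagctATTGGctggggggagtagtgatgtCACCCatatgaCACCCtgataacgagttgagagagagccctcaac
Klf6 chr17:69458479-69458728, minus strand: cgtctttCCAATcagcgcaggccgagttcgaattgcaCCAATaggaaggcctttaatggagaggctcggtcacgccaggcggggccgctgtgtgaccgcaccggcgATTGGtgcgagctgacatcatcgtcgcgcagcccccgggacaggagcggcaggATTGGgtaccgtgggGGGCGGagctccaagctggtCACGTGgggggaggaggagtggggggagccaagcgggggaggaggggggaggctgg

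RefSeq windows were found for 6 of the 9 members (Sox11, Klf4, Klf5, Klf6, Klf7 and Klf9). They were searched on both strands for these 4 motifs and for TGANTCA (the AP-1 site), TGACGTCA (the cAMP response element) and TTCNNNGAA (the STAT site), and matches of different motifs may overlap. The Sox11 window held 1 match of GGGCGG, 1 of CCAAT and 2 of CACCC. The Klf6 window held 1 match of CACGTG, 1 of GGGCGG and 4 of CCAAT, and among the 6 windows it was the one with a CACGTG. The Klf4 window held none of the 4 motifs in capitals and 1 match of TTCNNNGAA. Of 33469 RefSeq windows of the same length, 5.59% held CACGTG, 30.5% GGGCGG, 34% CCAAT, 49.2% CACCC, 6.34% TGANTCA, 1.59% TGACGTCA and 7.67% TTCNNNGAA. These matches describe letters only.

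In proximal arrays Sox11 measured 5.55, 5.34 and 5.62 at 1 h, 5.09, 5.02 and 4.98 at 3 h, and 5.21, 5.03 and 4.90 at 8 h. It then measured 6.22 and 7.31 at 12 h, 6.50 and 8.10 at 16 h, 8.11, 8.06 and 7.52 at 18 h, 7.60, 8.14 and 7.51 at 24 h, and 7.43, 8.04 and 7.98 at 28 h. The step lay between 8 and 18 h, and the level was then flat. In sham arrays Sox11 measured 5.10, 5.56 and 5.38 at 1 h, 5.09, 5.03 and 4.89 at 3 h, and 4.87, 4.62 and 4.99 at 8 h. From 18 h on the sham arrays measured 5.63, 5.47 and 5.43 at 18 h, 5.40, 5.46 and 5.39 at 24 h, and 5.74, 5.18 and 5.52 at 28 h. The proximal arrays all lay above the sham arrays at 18, 24 and 28 h, as they did for 4.74% of genes at 18 h, 6.8% at 24 h and 11.8% at 28 h. The late difference was 2.35 on the log2 scale (SE 0.19, adjusted p = 9.75e-15 by limma), from means of 7.82 ± 0.30 in proximal arrays and 5.47 ± 0.16 in sham arrays (SD, n = 9 each). By hour the difference was 2.39 at 18 h, 2.33 at 24 h and 2.34 at 28 h. The late sham level lay near 5.46 log2, the mean level under which genes were left untested, and array folds can be understated at such dim signals.

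The middle hours of the proximal lesion rested on few arrays. Sham array b at 12 h measured 7.56 for Sox11 and 11.55 for Atf3, against 5.09 and 7.32 in sham array a, so the library labelled sham 12 h b stood with the injured arrays. The single sham array at 16 h measured 6.64 for Sox11 and 9.97 for Atf3. Over 12 and 16 h Sox11 differed by 0.55 between proximal and sham (adjusted p = 0.413 by limma), and by 1.17 without sham 12 h b. That array was set apart partly by its own Sox11 value, so the larger difference follows from the choice and is no test. Sham array a was then the only sham array at 12 h. Over the 6 leave-outs of 1 array the difference ranged from -0.07 to 1.17. No member was called in the middle window, where 0.114% of genes were, and 1 of 9 had an unadjusted p under 0.05. In the early window no member was called, where 0.13% of genes were, and none had an unadjusted p under 0.05. Early proximal arrays averaged 5.19 ± 0.26 log2 for Sox11 and early sham arrays 5.06 ± 0.28 log2 (SD, n = 9 each).

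In distal arrays Sox11 measured 5.70, 5.50, 5.31 and 5.67 at 1 h, 5.51, 5.92 and 5.41 at 3 h, and 5.13, 5.17, 5.11, 4.70 and 4.89 at 8 h. It measured 5.90, 5.23 and 6.22 at 12 h and 7.64 and 7.72 at 16 h. At 18 h the lowest of 6 arrays was 6.52, the median 7.27 and the highest 7.72, and values were 7.10, 7.41 and 6.71 at 24 h and 7.44, 7.78 and 7.53 at 28 h. The distal level was low up to 12 h and high from 16 h on. Against distal 1 h the difference was 0.24 at 12 h (adjusted p = 0.839), 2.13 at 16 h, 1.65 at 18 h, 1.53 at 24 h and 2.04 at 28 h, the last 4 all called.

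Ordered by their means, the highest Sox11 groups were proximal 18 h (7.89 ± 0.33), proximal 28 h (7.82 ± 0.34), proximal 24 h (7.75 ± 0.34), distal 16 h (7.68 ± 0.06, n = 2), distal 28 h (7.58 ± 0.18), proximal 16 h (7.30 ± 1.13, n = 2), distal 18 h (7.19 ± 0.45, n = 6) and distal 24 h (7.07 ± 0.35), as log2 mean ± SD with n = 3 unless given. The arrays of each of these groups overlapped those of the next in the order. Sham groups other than 12 and 16 h ended the order together with the early groups, between 4.83 and 5.61.

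**Figure D1:**
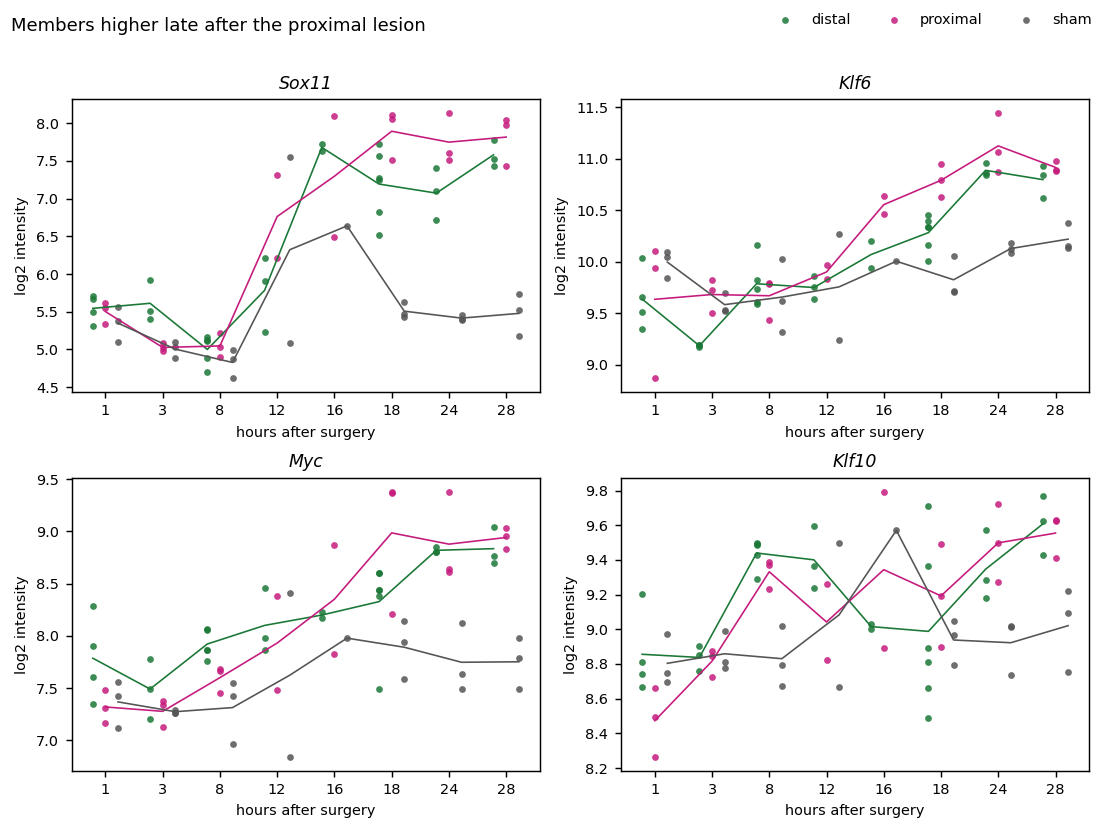
Log2 intensity (vertical axis) of Sox11, Klf6, Myc and Klf10 by hour after surgery (horizontal axis, hours evenly spaced), with 1 point per array and lines through the group means for distal, proximal and sham arrays. From 18 h on the proximal points for Sox11, Klf6 and Myc lie above all sham points of those hours, and the sham Sox11 point at 7.56 at 12 h is the array that stood apart.

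Klf6, which promotes axon growth in retinal neurons, had a mean that climbed at each hour from 12 to 24 h after either crush. Its timing was not tested against that of Sox11. Proximal arrays measured 9.83 and 9.97 at 12 h, 10.47 and 10.64 at 16 h, 10.80, 10.95 and 10.62 at 18 h, 11.45, 11.06 and 10.87 at 24 h, and 10.88, 10.97 and 10.89 at 28 h. Sham arrays measured 9.71, 10.05 and 9.71 at 18 h, 10.18, 10.12 and 10.09 at 24 h, and 10.38, 10.15 and 10.13 at 28 h. The late groups did not overlap at any of these 3 hours. The late difference was 0.89 (SE 0.12, adjusted p = 4.53e-08), from 10.94 ± 0.22 log2 in proximal arrays and 10.06 ± 0.22 log2 in sham arrays (SD, n = 9 each). It was 0.97 at 18 h, 1.00 at 24 h and 0.70 at 28 h, each called. The 24 h call was lost without 1 of the 6 arrays (proximal a, adjusted p = 0.054). The 28 h call was lost when any of 5 of the 6 arrays was left out, and over those leave-outs it ranged from 0.65 to 0.71. In distal arrays Klf6 measured 9.17, 9.20 and 9.19 at 3 h, 9.64, 9.75 and 9.86 at 12 h, 10.20 and 9.94 at 16 h, 10.84, 10.95 and 10.86 at 24 h, and 10.62, 10.84 and 10.93 at 28 h. At 18 h the lowest of 6 was 10.01, the median 10.33 and the highest 10.45. Late and early distal arrays overlapped for Klf6.

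Klf6 had 2 other probe sets above the filter, and they did not move together. Late proximal over late sham, 1395557_at differed by 1.26 (adjusted p = 0.00054 in a fit over all probe sets) and 1387060_at by 0.94 (adjusted p = 0.174). Late over early within distal arrays, they differed by 0.29 (adjusted p = 0.401) and 0.79 (adjusted p = 0.0906), against 1.12 for the brightest one. Within sham arrays, 1387060_at was lower late by -1.98 while the brightest probe set was higher by 0.31.

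Myc, the E-box factor of ribosome biogenesis, was the other gene with no late overlap between proximal and sham. Proximal arrays measured 7.16, 7.31 and 7.49 at 1 h, 7.34, 7.38 and 7.13 at 3 h, 7.68, 7.46 and 7.67 at 8 h, 7.48 and 8.38 at 12 h, and 7.83 and 8.87 at 16 h. Late proximal arrays measured 9.38, 9.37 and 8.21 at 18 h, 8.61, 8.64 and 9.38 at 24 h, and 8.83, 8.96 and 9.03 at 28 h. Late sham arrays measured 8.15, 7.94 and 7.58 at 18 h, 7.49, 7.63 and 8.12 at 24 h, and 7.98, 7.49 and 7.79 at 28 h. At 18 h the lowest proximal array lay just above the highest sham array, and the gap was wider at 24 and 28 h. The late difference was 1.14 (SE 0.16, adjusted p = 6.55e-07), from 8.94 ± 0.41 log2 in proximal arrays and 7.80 ± 0.26 log2 in sham arrays (SD, n = 9 each). It was called at 18 h (1.09), 24 h (1.13) and 28 h (1.19). The 18 h call was lost without any of 4 of the 6 arrays, the 24 h call without any of 3 of 6, and the 28 h call without sham b (adjusted p = 0.0525). In distal arrays Myc was between 7.20 and 8.29 in the early window, and measured 8.80, 8.81 and 8.85 at 24 h and 8.77, 9.04 and 8.70 at 28 h. Of the 6 distal arrays at 18 h, 5 lay between 8.38 and 8.61 and 1 at 7.50.

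Klf10, the TGF-beta response gene, showed the smallest of the called late proximal differences, and its groups overlapped. Late proximal arrays ran from 8.90 to 9.72 log2 with a median of 9.49, and late sham arrays from 8.74 to 9.22 with a median of 9.01. The difference was 0.45 (SE 0.12, adjusted p = 0.0061), and it was not called at any single hour. At 8 h the 3 proximal arrays (9.23, 9.37 and 9.39) were each higher than the 3 sham arrays (8.68, 8.80 and 9.02), and so they were at 24 and 28 h. Of all genes, 19% had such groups at 8 h, 6.8% at 24 h and 11.8% at 28 h. The 8 h difference was 0.50 (adjusted p = 0.23).

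By single hour, 3 of 9 members were called higher at 18, 24 and 28 h, the same Sox11, Klf6 and Myc each time, and none was called lower. Over all genes 1.51% were called at 18 h, 1.21% at 24 h and 4.47% at 28 h. At 1, 3, 8, 12 and 16 h no member was called by limma, where 0, 0, 1.75, 0.0326 and 0.0489% of genes were, and 0, 0, 1, 0 and 2 members had an unadjusted p under 0.05. At 18 h, where proximal and sham arrays of a letter deviated together, a fit of these 6 arrays alone with the letter as a replicate block called 4 members, Sox11, Klf6, Myc and Klf9 (-1.45, adjusted p = 0.0159), and 359 genes. The same 6 arrays without the block gave 1 member, Sox11 (adjusted p = 0.044), and 3 genes, and the fit of all 72 arrays gave 3 members and 185 genes, with Klf9 at an adjusted p of 0.0553. The Klf9 difference had the other sign at 24 h (1.22, adjusted p = 0.205) and 28 h (1.13, adjusted p = 0.133), and at 18 h it ranged from -2.13 to -0.90 when 1 array was left out. Within technical sets at 18 h, proximal minus sham was 2.54 (set B, 2 arrays a group) and 2.09 (set D, 1 array a group) for Sox11, 0.99 and 0.91 for Klf6, and 1.33 and 0.63 for Myc. At 24 and 28 h both groups lay in set C, so those differences are within-set values.

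**Figure D2:**
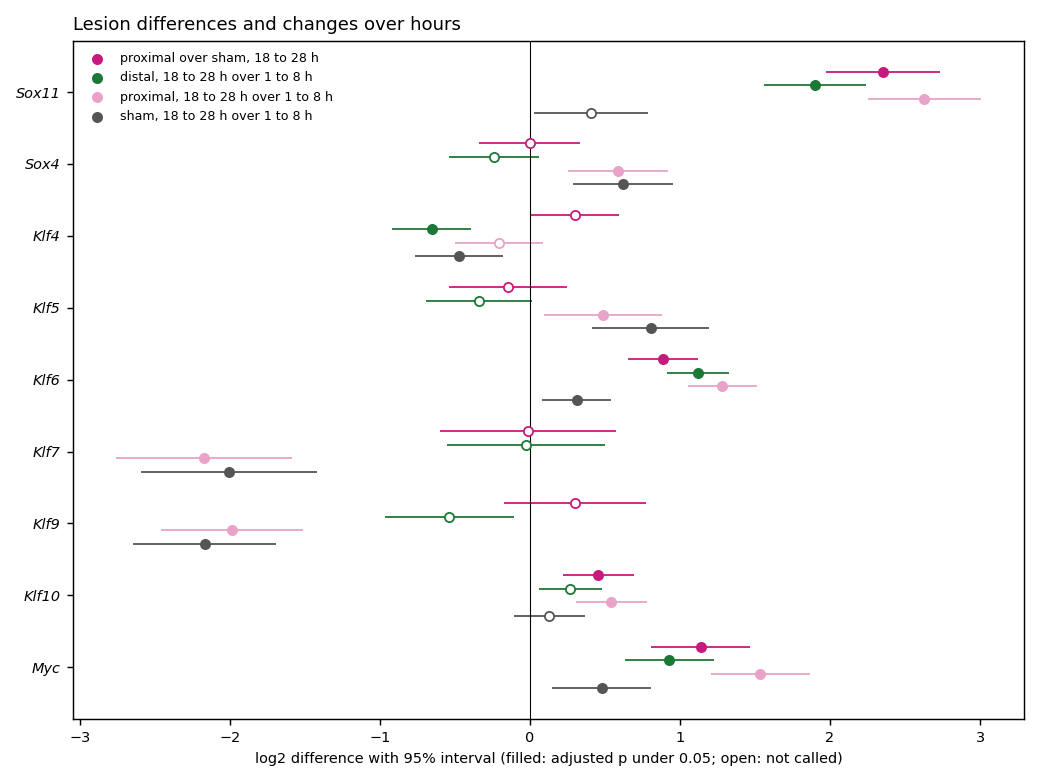
Log2 differences with 95% intervals (horizontal axis) for each of the 9 genes in 4 comparisons: proximal over sham at 18 to 28 h, and 18 to 28 h over 1 to 8 h within distal, proximal and sham arrays. Sox11, Klf6 and Myc lie to the right in the first 3 comparisons, and Klf7 and Klf9 lie near -2 in proximal and sham arrays and not in distal arrays.

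Klf4, Klf5, Klf7, Klf9 and Sox4 were not called late after the proximal crush. Klf4, which suppresses axon growth in retinal neurons, averaged 7.94 ± 0.29 log2 in proximal arrays and 7.64 ± 0.36 log2 in sham arrays, a difference of 0.30 (95% interval 0.01 to 0.59, adjusted p = 0.227). Sox4, the other SoxC gene here, averaged 9.98 ± 0.29 and 9.98 ± 0.26 log2, with an interval of the difference from -0.34 to 0.33. The interval of the Klf5 difference ran from -0.54 to 0.25. The intervals of Klf7 (-0.60 to 0.57) and Klf9 (-0.18 to 0.78) were wider, and their arrays ranged over several log2 units within both groups.

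After the distal crush Sox11, Klf6 and Myc rose with time and Klf4 fell. Klf6, Myc and Klf4 changed in the same direction in sham arrays, where hour and technical set were linked. Late over early distal arrays, Klf6 was 2.17-fold, Sox11 3.72-fold and Myc 1.90-fold higher, and Klf4 was 1.58-fold lower. Thus 3 of 9 members were called higher and 1 lower, where 25.3% of genes were called, 15.4% higher and 9.87% lower. The median over members was -0.03, against 0.03 over all genes. Sox11 was the one member whose 12 late arrays all lay above its 12 early arrays, which held for 0.31% of genes. These comparisons share no array with proximal over sham. The early distal level of Sox11 lay under 5.46 log2, so its fold can be understated.

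The means here pool all arrays of a window, whereas the tested differences and folds weight its hours equally. The differences therefore need not equal the gap between the means. Sox11 averaged 7.26 ± 0.40 log2 in late arrays and 5.33 ± 0.35 log2 in early arrays (SD, n = 12 each), with a tested difference of 1.90 (SE 0.17, adjusted p = 2.90e-13 by limma). Klf6 averaged 10.56 ± 0.32 log2 late and 9.59 ± 0.33 log2 early, with a tested difference of 1.12 (SE 0.10, adjusted p = 9.25e-13 by limma). Myc averaged 8.58 ± 0.39 log2 late and 7.77 ± 0.31 log2 early, with a tested difference of 0.93 (SE 0.15, adjusted p = 2.19e-06 by limma). In sham arrays late over early, Myc differed by 0.48 (adjusted p = 0.0176), Klf6 by 0.31 (adjusted p = 0.0264) and Sox11 by 0.41 (adjusted p = 0.078). The distal change exceeded the sham change for Sox11 (by 1.49) and Klf6 (by 0.81), both called, and that of Myc was not called (0.45, adjusted p = 0.117), though with technical set as a block it was 1.00 (adjusted p = 4.01e-06). Klf10 differed by 0.27 (adjusted p = 0.0534), and by 0.75 at 28 h over 1 h (adjusted p = 0.0056). In the middle window over the early one Sox11 alone was called (1.35, adjusted p = 5.98e-05), where 1.4% of genes were.

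Klf4, which suppresses axon growth in retinal neurons, measured 8.20, 7.81, 8.77 and 8.75 log2 in distal arrays at 1 h, 7.29 and 7.33 at 16 h, 7.46, 7.65 and 7.61 at 24 h, and 7.29, 7.71 and 7.73 at 28 h. Late and early distal arrays overlapped for Klf4. Late over early the difference was -0.66 (SE 0.13, adjusted p = 0.0001), from 7.53 ± 0.38 log2 late and 8.20 ± 0.43 log2 early (SD, n = 12 each). Klf4 was also lower late than early in sham arrays, by -0.47 (adjusted p = 0.0083), and differed by -0.21 in proximal arrays (adjusted p = 0.279), by limma. With technical set as a block the sham change of Klf4 was not called. The test of the distal against the sham change did not call Klf4. In distal arrays of technical set A alone, which was an alternative chosen after seeing the data, Klf4 was not called at 16 h (-0.95), 24 h (-0.69) or 28 h (-0.68) over 1 h, where all distal arrays gave -1.07, -0.81 and -0.80.

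Against distal 1 h, members called numbered 0 at 3, 8 and 12 h, where 0.00815, 1.25 and 1.47% of genes were called by limma and 1, 2 and 1 members had an unadjusted p under 0.05. They numbered 2 at 16 h (0.619% of genes), 3 at 18 h (5.13%), 4 at 24 h (10.5%) and 5 at 28 h (10.1%). Sox11 and Klf4 were called from 16 h, Klf6 from 18 h, Myc from 24 h and Klf10 at 28 h. Leaving out 1 array ended the Klf4 call in 4 of 6 cases at 16 h, 4 of 7 at 24 h, 3 of 7 at 28 h and 0 of 10 at 18 h, and the Klf10 call at 28 h in 1 of 7.

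The change from early to late was set against sham and between lesions. Proximal over sham, the rise was larger for Sox11 (by 2.22, adjusted p = 1.41e-08), Klf6 (by 0.97, adjusted p = 3.45e-05) and Myc (by 1.06, adjusted p = 0.0017), so 3 of 9 members differed, where 8.67% of genes did. Distal over sham, 6 members differed, where 30% of genes did, and lesion and technical set cannot be told apart there. Distal over sham levels were called for 3 members in the early window (68.7% of genes), 0 in the middle window (6.23% of genes, 1 member with an unadjusted p under 0.05) and 6 in the late window (61.8% of genes). With technical set as a fixed block, no member was called in the early window.

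Distal minus proximal, the change from early to late differed for 6 members, where 21.5% of genes did. Sox11 (-0.73, adjusted p = 0.0321 by limma) and Myc (-0.61, adjusted p = 0.0418) rose less in distal arrays, and the Klf6 difference was -0.16 (interval -0.47 to 0.15). Leaving out 1 array ended the Sox11 call in 8 of 42 cases and the Myc call in 20 of 42. With technical set as a block the Sox11 difference was -0.15 (adjusted p = 0.634) and the Myc difference -0.06 (adjusted p = 0.821).

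**Figure D3:**
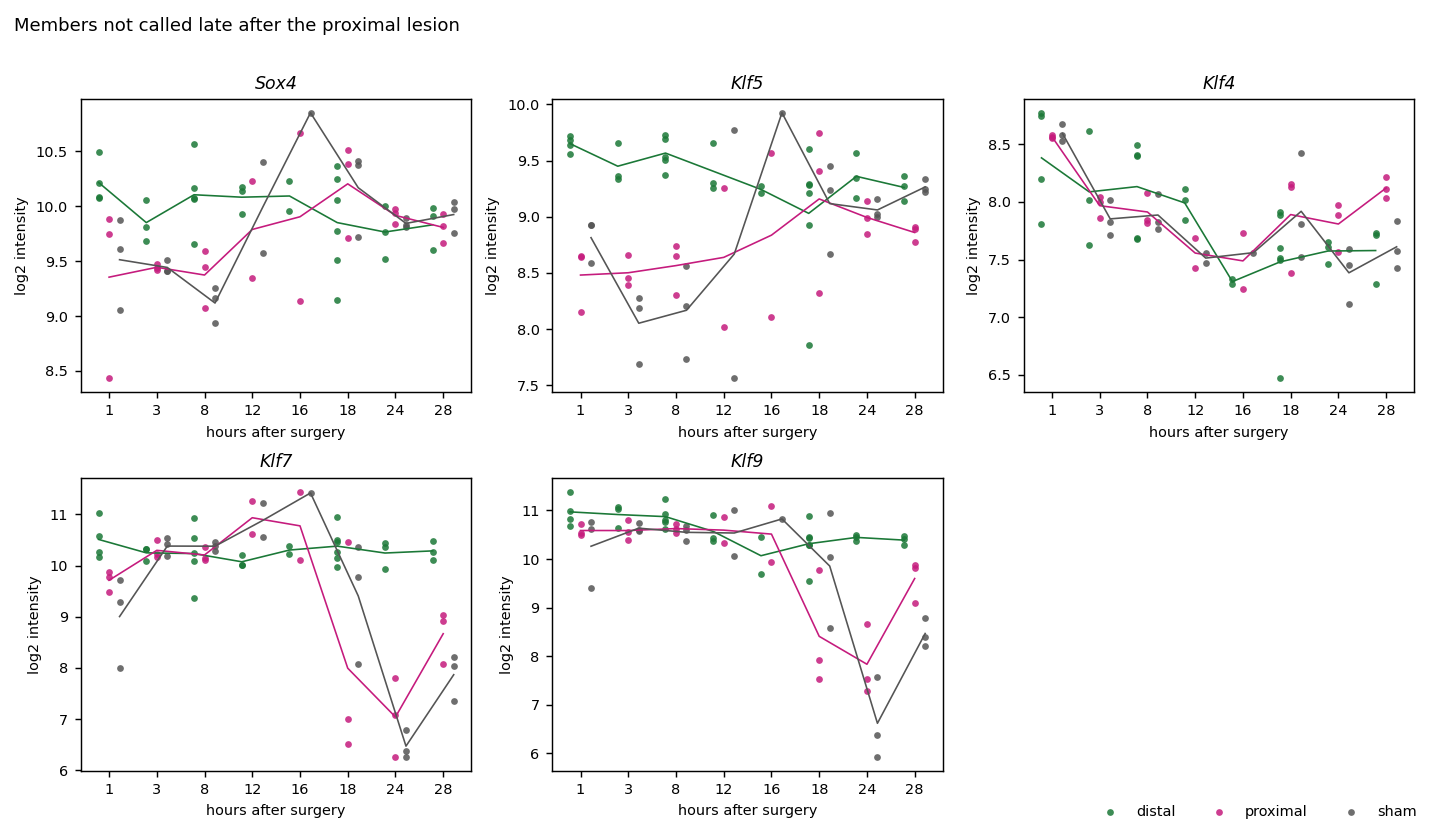
Log2 intensity (vertical axis) of Sox4, Klf5, Klf4, Klf7 and Klf9 by hour after surgery (horizontal axis), with 1 point per array and lines through group means for distal, proximal and sham arrays. Klf7 and Klf9 spread over several log2 units in late proximal and sham arrays, and all distal Klf7 points lie between 9.36 and 11.03.

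Klf7, which promotes axon growth, and Klf9, the hormone receptor target, were lower in many late proximal and sham arrays than in any distal array. Within distal arrays Klf9 averaged 10.37 ± 0.30 log2 late and 10.92 ± 0.24 log2 early (SD, n = 12 each). Klf7 measured 7.01, 6.51 and 10.46 log2 in proximal arrays at 18 h, 7.07, 7.80 and 6.25 at 24 h, and 8.07, 9.02 and 8.91 at 28 h. In sham arrays Klf7 measured 9.77, 8.08 and 10.36 at 18 h, 6.79, 6.37 and 6.25 at 24 h, and 8.03, 8.21 and 7.35 at 28 h. Proximal and sham arrays overlapped at all 3 hours. Klf9 measured 7.92, 7.53 and 9.77 in proximal arrays at 18 h, 7.54, 8.67 and 7.29 at 24 h, and 9.09, 9.82 and 9.88 at 28 h. In sham arrays Klf9 measured 10.03, 8.58 and 10.95 at 18 h, 7.56, 5.92 and 6.37 at 24 h, and 8.40, 8.79 and 8.21 at 28 h. At 28 h the 3 proximal Klf9 arrays were above the 3 sham arrays, as for 11.8% of genes, and the difference was not called.

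Late over early, Klf7 fell by 2.17 in proximal arrays and by 2.01 in sham arrays on the log2 scale. Klf9 fell by 1.99 in proximal arrays and by 2.17 in sham arrays, and all 4 changes were called. In distal arrays Klf7 differed by -0.03 and Klf9 by -0.54 (adjusted p = 0.953 and 0.0571 by limma). The Klf9 probe set 1387882_at measured 6.24 ± 0.31 log2 late and 6.99 ± 0.30 log2 early in distal arrays. It measured 6.27 ± 0.61 and 7.04 ± 0.24 log2 in sham arrays, and 6.48 ± 0.61 and 6.86 ± 0.22 log2 in proximal arrays. On that probe set the late mean was thus lower in all 3 lesion groups, distal included. The limma tests used a common spread over all 24 groups, including the wide late proximal and sham groups. The missing distal Klf9 call therefore does not measure distal spread alone. In all, 8 members were called late over early in proximal arrays (6 higher, 2 lower, where 33.6% of genes were called) and 7 in sham arrays (4 higher, 3 lower, where 40.3% of genes were). Over all 8 times 6 members changed within sham, where 53.6% of genes did. With technical set as a block, Klf7 (-1.79) and Klf9 (-2.18) were the members still called in sham late over early.

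Klf7 and Klf9 moved together from array to array. Their Pearson correlation was 0.94 over 43 proximal and sham arrays and 0.31 over 29 distal arrays. Within proximal and sham arrays it was 0.997 in set B (8 arrays), 0.968 in set C (18 arrays) and -0.02 in set D (17 arrays). The arrays share tissue, hours and processing, so these are descriptions. Their ranges over proximal and sham arrays were 5.19 and 5.17 log2 units, and 0.171% and 0.179% of genes had a range at least as wide. In sham, late over early, the other probe sets above the filter differed by -0.73 and -0.56 for Klf7 (the second not called) and by -0.77 for Klf9. What gives this spread was not tested.

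**Figure D4:**
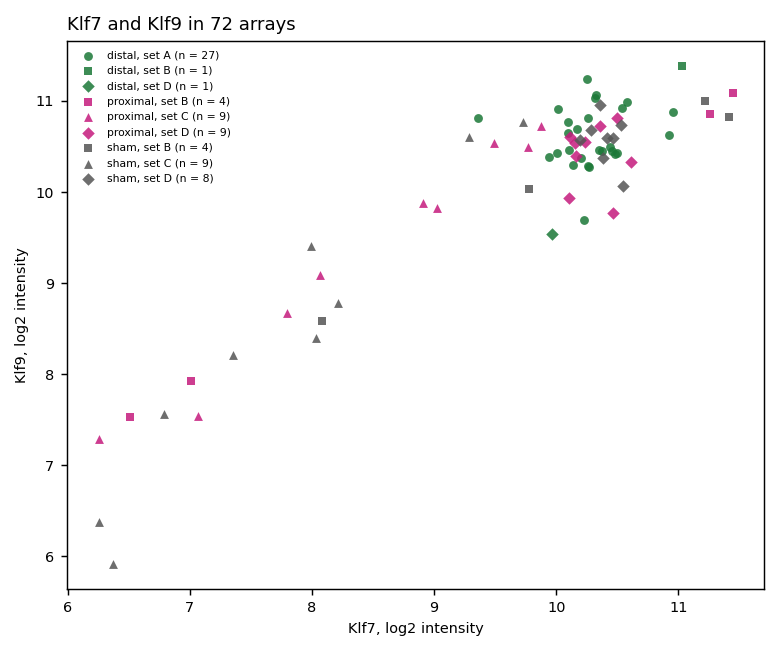
Klf9 (vertical axis) against Klf7 (horizontal axis), both log2 intensity, with 1 point for each of 72 arrays, coloured by lesion and shaped by technical set. Distal points gather at high values of both genes, and proximal and sham points of sets B and C fall along a line.

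Sox4, the SoxC relative of Sox11, and Klf5 showed another pattern: late over early they were not called in distal arrays (-0.24 and -0.34) and were higher in proximal arrays (0.59 and 0.49) and sham arrays (0.62, adjusted p = 0.0026, and 0.80, adjusted p = 0.0010). The Klf5 call in proximal arrays was lost in 13 of 18 leave-outs of 1 array. The distal change differed from the proximal one by -0.83 for both. With technical set as a block, sham late over early gave 0.17 for Sox4 and 0.05 for Klf5, neither called. Other probe sets went the opposite way in sham: Sox4 by -1.31 in 1373860_at and -0.71 in 1375123_at, and Klf5 by -1.07 in 1368363_at.

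**Figure D5:**
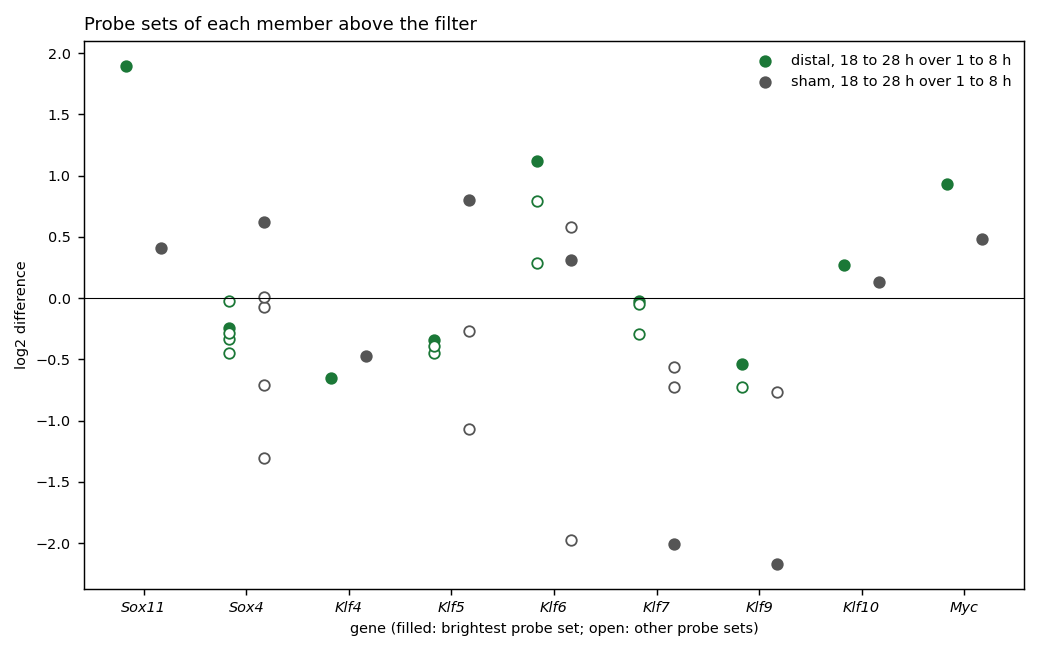
Late over early log2 differences (vertical axis) in distal and in sham arrays for each member's probe sets above the filter (horizontal axis, by gene); filled points are the brightest probe set and open points the others. Probe sets of Sox4, Klf5 and Klf6 lie on both sides of 0 in sham arrays.

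Genes related to the members were described from lists, to be read against the 5.35% of all genes called higher late after the proximal crush. Late after the proximal crush, 2 of 21 Myc-induced ribosome and metabolism genes were called higher, Nop56 (a ribosome assembly factor) by 0.32 and Wdr43 by 0.33, and the list's median was 0.06, against -0.02 over all genes. None of 11 Myc and Max network genes and none of 11 other Klf and Sp genes was called in either direction. Of 7 genes reported downstream of Sox11, Sprr1a was called, by 0.65. Of 8 other Sox genes, Sox7 was called, by 0.57. Of 7 TGF-beta immediate targets, Tgif1, a repressor of TGF-beta signalling, was called, by 0.59, and of 7 glucocorticoid receptor targets Dusp1, named here after its value was seen, was called, by 0.63. Of 4 other reprogramming factors, 1 was on the array and none passed the filter.

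Late over early, 15.4% of all genes were called higher and 9.87% lower in distal arrays, and 35.4% higher and 4.94% lower in sham arrays. In distal arrays 6 of 7 glucocorticoid receptor targets were called lower, among them Fkbp5 (-1.21), Errfi1 (-0.89) and Ddit4 (-0.78), with a list median of -0.64, against 0.03 over all genes. In sham arrays 5 of the 7 were called lower as well, with a median of -0.46. Of the Myc-induced genes 7 of 21 were called higher in distal arrays, among them Nop56 (0.39) and Rrp9 (0.30), and 5 were higher and 1 lower in sham arrays. Of the other Sox genes 4 of 8 were higher and 1 lower in distal arrays, with Sox10, the glial Sox factor, at 0.81 and a list median of 0.34, and 6 of 8 were higher and 1 lower in sham arrays, with a median of 0.36. Of 11 Klf and Sp genes 2 were higher and 3 lower in distal arrays, as many as in sham arrays, and of the Myc and Max network Mycn was higher (0.26) and Mxi1 lower (-0.26). Of 7 TGF-beta targets 3 were higher and 2 lower, and of 7 genes downstream of Sox11, Sprr1a was higher (1.18).

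Markers of other cells moved with these comparisons, and their part in the members' values was not tested. Late proximal over sham, 7 of 13 macrophage markers were higher and none lower, with a mean list level between 7.71 and 8.67 log2 in proximal arrays and between 7.18 and 8.04 log2 in sham arrays. Of 2 neutrophil markers tested S100a9 was higher (0.97). Of 11 sensory neuron markers 2 were lower, Rbfox3 among them (-0.65), with list levels from 12.15 to 12.49 log2 in proximal arrays and from 12.30 to 12.56 log2 in sham arrays. No marker of satellite glia, Schwann cells, lymphocytes, endothelium, fibroblasts, smooth muscle, skeletal muscle or spinal cord was called there. Late over early in distal arrays, 5 macrophage markers were higher and 3 lower (Mrc1 by -1.02), 4 sensory neuron markers were lower (Isl1 by -0.84), and 4 of 6 fibroblast markers were lower (Lum by -0.44). In the same comparison 2 of 4 satellite glia markers (Fabp7 by 0.90, Gja1 by 0.43) and 3 of 5 smooth muscle and pericyte markers (Des by 0.78) were higher, and 2 of 6 Schwann markers were higher and 1 lower. No endothelial, neutrophil, lymphocyte, skeletal muscle or spinal cord marker was called there.

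The genes whose differences followed those of Sox11 most closely over 15 values (8 of proximal minus sham and 7 of distal minus distal 1 h) were Rgs2 (r = 0.97), Gadd45a (r = 0.95) and Reg3a (r = 0.94). For Klf6 they were Btbd8 (r = 0.95), Eif2ak3 (r = 0.95) and Atg16l1 (r = 0.94), and for Myc they were Cnst (r = 0.95), Rhou (r = 0.95) and Zfp367 (r = 0.94). Among the members, Klf6 and Myc reached 0.92, Sox11 and Myc 0.87, and Sox11 and Klf6 0.80. The 15 values are not independent: 7 share the distal 1 h mean, and the sham level at 16 h is 1 array. The genes named had the highest correlations of all genes tested, so these values are descriptions. Gadd45a differed by 2.35 late after the proximal crush and by 2.12 late over early in distal arrays, and Reg3a by 2.59 and 3.09.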

How the data were processed

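Expression was measured on 72 Affymetrix rat arrays, one per sample. Per the submitters' processing notes the authors made log2 intensities by RMA, and these deposited log2 values were used as given; the RMA version, and whether all arrays were normalized together, are not given in the sources used here. Values ran from 3.27 to 14.64 log2. Of 31099 probe sets, 57 controls were left out, 20826 had 1 symbol, 436 several and 9780 none in the platform annotation, and 14167 of 14217 genes matched RefSeq by Entrez ID. Genes under the 25th percentile of probe set means (5.46 log2) were not tested. Groups came from the titles. Means of 24 groups were fitted with limma 3.58.1 (R 4.3.3, 48 residual degrees of freedom, trended eBayes, two-sided, Benjamini-Hochberg over 12276 genes per comparison); windows weight hours equally. The procedure was run on simulated data with independent arrays, equal spread in all groups and no technical sets. The real arrays differ in these respects, so that run does not secure the p-values. Named were the 9 members, Atf3, in each list up to 3 genes by smallest p, and the 3 genes most correlated with Sox11, Klf6 and Myc. Members and lists were chosen with earlier results of these data known. Titles carry letters: proximal and sham arrays of a letter deviated together (all correlations over 0.1) at 1 h (0.696, 0.509 and 0.478) and 18 h (0.618, 0.714 and 0.799), and not at 3, 8, 24 and 28 h. Technical sets are Ward clusters of arrays on probe sets under the filter, found after the data were seen. Alternatives were other filters, renormalization, array weights, blocks by letter or set, smaller fits, pooled sham, other probe sets and leaving out arrays. Promoter windows are from RefSeq (GRCr8).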

Additional observations from a re-analysis of the deposited data

Results flagged for a closer look

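The 9 members were each examined for a single far array in the 3 groups of 4 to 10 arrays (distal 1, 8 and 18 h), 27 cases in all. It was found in 2, both at 18 h, and chance gives about 1 in 20. Klf4 measured 6.47 log2 in distal array b at 18 h, against 7.50 to 7.91 in the other 5. Myc measured 7.50 log2 in distal array do at 18 h, against 8.38 to 8.61 in the other 5, and this was the distal array of that hour in technical set D.

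The change from early to late differed between distal and proximal arrays, by a test of the difference itself, for 6 members. It was smaller in distal arrays by -0.73 for Sox11, -0.83 for Sox4, -0.83 for Klf5 and -0.61 for Myc, and larger by 2.14 for Klf7 and 1.45 for Klf9. With technical set as a block, Klf7 (1.90) and Klf9 (1.44) were the 2 still called.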

How the results depend on the processing

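The 4 late proximal calls (Sox11, Klf6, Myc and Klf10) were kept when any 1 array was left out, and with no filter, renormalization, array weights and blocks by letter or set. Under the 50th percentile filter Sox11 was not tested and the other 3 were kept; another Klf6 probe set missed the call (0.94, adjusted p = 0.174 by limma). At 1 h the letter block changed no call. Counts of members called moved by more than 1.5 times under some alternatives. They are given as the count under the alternative against the reported one, and the cause was not tested. Genes called over all genes moved too, and the member counts are to be read against that. Array weights called 4388 genes against 549 for proximal over sham at 28 h. They called 2237 against 181 at distal 12 h and 6564 against 3103 for distal late over early. Technical set as a block called 1098 genes against 8436 for distal over sham early. The array letter as a block called 23 genes against 630 at distal 18 h. With the array letter as a replicate block in a fit of the arrays compared, distal over distal 1 h gave 1 against 0 at 8 h, 1 against 0 at 12 h, 6 against 2 at 16 h, 1 against 3 at 18 h, 8 against 4 at 24 h and 8 against 5 at 28 h. That block gave 7 against 4 for distal late over early, 2 against 1 for distal middle over early, 6 against 3 for distal over sham early, 8 against 3 for proximal over sham at 28 h and 2 against 0 in the middle window. Without the block, the fit of the arrays compared gave 1 against 0 at distal 8 h, 1 against 2 at 16 h, 1 against 3 at 18 h, 7 against 4 at 24 h, 8 against 5 at 28 h, 2 against 1 for distal middle over early and 8 against 3 for distal over sham early, and for proximal over sham 1 against 0 at 8 h, 1 against 3 at 18 h and 7 against 3 at 28 h. Array weights gave 1 against 0 at distal 8 and 12 h, 4 against 2 at distal 16 h, 7 against 4 late and 6 against 1 in the middle over the early window, 6 against 3 for distal over sham early, 1 against 0 for proximal over sham at 1, 3 and 8 h, 5 against 3 at 18 and 24 h, 8 against 3 at 28 h and 5 against 3 for the proximal over the sham rise. Technical set as a block gave 1 against 0 at distal 8 and 12 h and at proximal over sham 8 h, 7 against 4 for distal late and 3 against 1 for distal middle over early, 0 against 3 for distal over sham early, 2 against 6 for distal against proximal rise, and 2 against 7 for sham late over early. Renormalization, and leaving out arrays with an o after the letter, each gave 1 against 0 at distal 8 and 12 h, and the second gave 1 against 2 at 16 h. Set A alone (chosen after seeing the data) gave 1 against 0 at distal 8 h and 1 against 2 at 16 h. The 50th percentile filter, which drops Sox11, gave 1 against 2 at distal 16 h and 0 against 1 for distal middle over early. Pooling all sham arrays, which mixes hours, gave 5 against 3 for distal over sham early and 2 against 0 in the middle window, and for proximal over sham 2 against 0 at 1 h, 1 against 0 at 16 h, 5 against 3 at 24 h and 1 against 0 in the middle window.

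Direction reversed for Klf4 at 1 h (0.74) and Klf7 at 24 h (-2.18), proximal over pooled sham. With the set block it reversed for Klf5 proximal late over early (-0.26), Myc distal over sham early (-0.10) and Myc sham late over early (-0.0036). Other probe sets reversed Klf5 (distal against proximal rise 1.20 and 0.44, proximal late over early -1.65 and -0.35, sham -1.07), Klf6 (proximal late over early -1.34, sham -1.98), Klf7 (distal over sham late -0.51) and Klf9 (distal over sham late -0.35). For Sox4 they gave -0.72 and -0.65 for distal over sham early, 1.70 and 1.28 for the distal rise against proximal and sham, -1.72 and -0.78 for proximal late over early, and -1.31 and -0.71 for sham. Some of these probe sets lay under the filter. They were 1391471_at (Klf7, -0.51), 1390076_at (Klf9, -0.35), 1398159_at (Klf5, 0.44 and -0.35) and 1375257_at (Sox4, -0.65). Their means were 4.83, 4.94, 4.99 and 5.16 log2. Probe sets under the filter also defined the technical sets.

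Leaving out 1 array gave 0 to 1 members called at distal 8 h, 1 to 2 at 16 h, 2 to 4 at 18 h, 3 to 4 at 24 h and 3 to 5 at 28 h, 4 to 5 late and 1 to 2 in the middle over early. It gave 2 to 5 for proximal over sham at 18 h, 2 to 3 at 24 h, 1 to 3 at 28 h, 0 to 1 at 12 h, 0 to 2 at 16 h and 0 to 1 in the middle window. It gave 3 to 4 early, 0 to 2 middle and 6 to 6 late for distal over sham, 4 to 7 for distal against proximal rise, 7 to 8 for proximal late over early, 6 to 7 for sham late over early, and 6 to 8 for time within sham. Genes called over all genes ranged over the alternatives from 878 to 3429 (reported 1192) for late proximal over sham and from 2526 to 6564 (reported 3103) for distal late over early. Dim probe sets limit Sox11, whose mean over all sham arrays (5.43 log2) lies under the filter level (5.46 log2).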
